A study of Mus musculus with 10 samples.

Results

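Small leucine-rich proteoglycans (SLRPs) were followed as a set of 10 genes, Dcn, Bgn, Aspn, Fmod, Lum, Kera, Prelp, Omd, Ogn and Podn. They were taken by gene symbol from a table of normalized counts that lists 15078 mouse genes, and all 10 were in it. Bulk RNA sequencing had been performed on stromal cells freshly sorted as CD51+CD200+, in 10 libraries that fell into 3 groups. Graft BM-MSCs (n = 4) were mesenchymal stem cells from the marrow of femurs of Postn-CRE transgenic mice, taken 5 months after the femurs had been transplanted, with tamoxifen given to induce the Cre and Tomato used to pick out the labelled cells. BM-MSCs (n = 3) and periosteal skeletal stem cells (P-SSCs, n = 3) were sorted from bone marrow and periosteum of wild-type, untreated mice at steady state. The Cre is driven by the promoter of Postn, a gene that other cells such as osteoblasts and fibroblasts also use, so the label marks a history of Postn expression and not one cell type. The libraries BM-MSC 2+4 and P-SSC 2+5 carry joined sample numbers, and each counted as 1 replicate here, since some samples mixed the RNA of more than 1 mouse.

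SLRPs are secreted proteins built around a row of leucine-rich repeats, and most of them carry chondroitin, dermatan or keratan sulfate chains. They bind fibrillar collagens and set the thickness and spacing of the fibrils, and several of them also bind growth factors of the TGF-β family. Bone, periosteum and tendon are tissues in which they are abundant, and mice that lack members of the family are known for defects of bone mass, tendon, skin and cornea. The members fall into classes by sequence: Dcn, Bgn and Aspn in class I, Fmod, Lum, Kera, Prelp and Omd in class II, Ogn in class III and Podn in class V.

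Most SLRP genes lie in 3 clusters. On GRCm38, with coordinates of GENCODE M21, Optc, Prelp and Fmod lie on chromosome 1 between 133897199 and 134048277, a span of 151 kb. Dcn, Lum, Kera and Epyc lie on chromosome 10 between 97479609 and 97682454, a span of 203 kb, all on the plus strand. Ecm2, Aspn, Omd and Ogn lie on chromosome 13 between 49504810 and 49624501, a span of 120 kb, within the gene Cenpp on the other strand. The gene of Dcn runs from 97479609 to 97518143, Lum from 97565128 to 97572703, Kera from 97606879 to 97613692, Fmod from 134037254 to 134048277, Prelp from 133910304 to 133921414, Aspn from 49544443 to 49567565, Omd from 49582462 to 49592822 and Ogn from 49608046 to 49624501. Bgn lies alone on chromosome X between 73483602 and 73495933 and Podn on chromosome 4 between 108014791 and 108096445, where its annotated extent overlaps Scp2 without a shared exon base.

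Promoter sequence is shown for Bgn, higher in grafts than in P-SSCs, and for Fmod and Aspn, lower there, since these members differed in opposite directions and have a start in RefSeq within 1 base of that in GENCODE. Each is the 250 bases before the start from RefSeq on GRCm38.p6, on the plus strand, for Bgn at chrX:73483351-73483600, for Fmod at chr1:134037004-134037253 and for Aspn at chr13:49544193-49544442. Capitals mark matches on either strand to the motifs searched for. These were TATAAA for the TATA box, TGTGGT for the Runx core, TGACTCA for AP-1, GGGCGG for the GC box and CATCTG for an E-box that Scx can bind.
Bgn: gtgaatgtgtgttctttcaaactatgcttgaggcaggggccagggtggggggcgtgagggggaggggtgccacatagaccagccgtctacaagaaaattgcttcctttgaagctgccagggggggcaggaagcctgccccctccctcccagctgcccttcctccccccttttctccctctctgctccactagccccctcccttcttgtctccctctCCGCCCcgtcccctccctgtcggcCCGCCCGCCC
Fmod: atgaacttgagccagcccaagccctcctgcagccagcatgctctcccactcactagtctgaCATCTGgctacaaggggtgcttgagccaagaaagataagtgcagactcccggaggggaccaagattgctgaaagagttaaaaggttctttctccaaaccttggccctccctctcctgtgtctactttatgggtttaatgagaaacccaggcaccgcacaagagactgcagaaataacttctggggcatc
Aspn: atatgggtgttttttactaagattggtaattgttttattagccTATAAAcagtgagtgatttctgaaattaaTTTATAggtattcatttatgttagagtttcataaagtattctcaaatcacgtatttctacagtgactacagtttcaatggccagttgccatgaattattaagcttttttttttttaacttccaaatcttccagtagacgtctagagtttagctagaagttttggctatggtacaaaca
The Bgn promoter has 64.4% GC and 3 GC boxes on the minus strand, which begin 34, 10 and 6 bases before the start, the last 2 overlapping. The Fmod promoter has 51.2% GC and 1 E-box 189 bases before the start, and the Aspn promoter has 30.0% GC and TATA boxes 207 and 178 bases before it. Among 32851 promoters of the same length, 32.7% held the GC box, 14.4% the E-box, 12.4% the TATA box, 14.0% the Runx core and 4.46% the AP-1 site. Of the 8 members with a promoter in the reference used, Aspn and Ogn held the TATA box, Ogn the Runx core, Bgn and Podn the GC box, Fmod and Podn the E-box, and none the AP-1 site. These matches describe letters and not binding.

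The libraries held from 15415421 to 25223295 reads. A limit bears on all 3 comparisons. The level of genes with a GC content over 65%, relative to genes between 50% and 60%, was high in all 4 graft libraries and in P-SSC 4, and low in the other 5 libraries. Between 22.6% and 38.3% of genes were listed at 0 in graft libraries against 11.5% to 19.0% elsewhere. The split of the libraries by GC-rich genes is called the batch here. It was inferred from 51 such genes in the same values that were tested, and no sample label names it. Graft BM-MSCs and BM-MSCs shared no such batch, so batch and group cannot be told apart there, while P-SSC 4 was the only P-SSC library on the side of the grafts. A fit with the batch as a covariate therefore takes its batch effect from P-SSC 4 against P-SSC 1 and P-SSC 2+5 alone. In both comparisons with grafts, calls that it kept or lost rest on P-SSC 4. None of the 10 SLRP genes is GC-rich, with a GC content of the longest transcript between 34.3% and 56.3%. A correction for GC content still moved log2 changes in grafts against P-SSCs for the members of highest GC content. Bgn went from 1.85 to 2.49, Fmod from -6.05 to -5.31, Prelp from -0.17 to 0.57 and Podn from -0.49 to 0.22. The other members moved less. Over all 13644 genes tested, the median log2 change was -0.47 in graft BM-MSCs against P-SSCs, -0.53 in graft BM-MSCs against BM-MSCs and 0.00 in P-SSCs against BM-MSCs, and a correction for GC content brought the first 2 to 0.03 and -0.02. In cell type markers all 6 marrow niche genes listed, among them Cxcl12 and Lepr, were higher in graft BM-MSCs than in P-SSCs. The 6 of the periosteal and fibroblast list were all lower. Of these, Cd34, Dpp4 and Clec3b passed the filter on low values only through P-SSCs. Their means were 0, 0.22 and 5.61 in grafts and 5.49, 0 and 0.70 in BM-MSCs. Of 4 endothelial genes listed, the 2 with values, Cdh5 and Emcn, were at 0 in all graft libraries. Cdh5 was also at 0 in all BM-MSC libraries and Emcn in all P-SSC libraries. In such bulk samples fewer cells of a type and less RNA per cell cannot be told apart.

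Several SLRPs differed between periosteum and marrow. Dcn, Fmod, Ogn and Kera were higher in P-SSCs than in either marrow group and Bgn was lower in P-SSCs than in either, whereas Dcn was the one member to pass the test between graft BM-MSCs and BM-MSCs. Differences were tested with limma on log2(normalized count + 1), with p-values adjusted over all 13644 genes tested, and a gene was taken as changed at an adjusted p under 0.05. All 10 members passed the filter on low values, Kera only through P-SSCs, the one group in which it was detected.

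**Figure D1:**
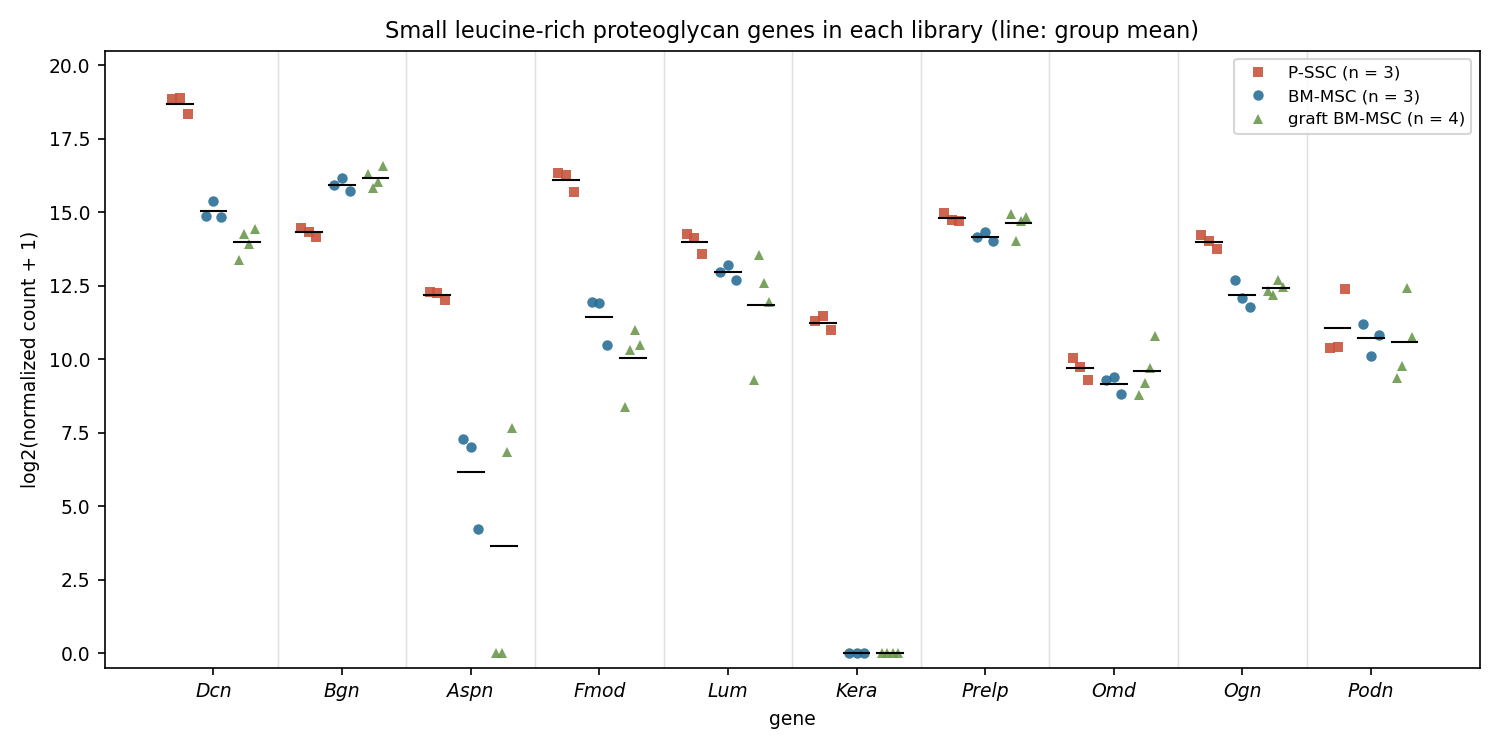
Levels of the 10 SLRP genes as log2(normalized count + 1), with 1 point per library, 3 P-SSC, 3 BM-MSC and 4 graft BM-MSC libraries, and a black line at each group mean. Dcn, Aspn, Fmod and Kera in P-SSCs stood clear above both marrow groups, Bgn stood below them, and Kera was at 0 in all 7 marrow libraries.

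Decorin, encoded by Dcn, carries a single chondroitin or dermatan sulfate chain and is known for regulating collagen fibril growth and for binding TGF-β. Its normalized count was 474788, 481665 and 330631 in P-SSC 1, 2+5 and 4. It was 30268, 42853 and 29328 in BM-MSC 1, 2+4 and 3, and 10582, 19863, 15668 and 22193 in graft BM-MSC 1 to 4. The 3 groups did not overlap, in the order P-SSC, BM-MSC and graft BM-MSC. The P-SSC mean was 12.6 times the BM-MSC mean, a log2 change of 3.65 ± 0.28 (SE) with an adjusted p of 3.13e-05. Graft BM-MSCs were lower than P-SSCs by 25.1 times on the ratio of means, a log2 change of -4.68 ± 0.27 (adjusted p = 3.21e-06), and the difference to P-SSC 4 alone was -4.33. Against BM-MSCs the log2 change of Dcn in the grafts was -1.03 ± 0.27 with an adjusted p of 0.0422, beside a median over all genes of -0.53. That call was fragile: it was lost under 9 of 13 other settings, and leaving out any one of 8 of the 10 libraries ended it, all but graft BM-MSC 4 and P-SSC 4, with the log2 change between -0.82 and -1.13. The batch as a covariate gave -0.50 (adjusted p = 0.872).

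Biglycan, the product of Bgn, is the closest relative of decorin, carries a pair of such chains and is known for its part in bone formation. Its normalized count was 80072, 58207, 67558 and 97229.9 in graft BM-MSC 1 to 4. BM-MSC 1, 2+4 and 3 had 62645, 73228 and 54088, and the P-SSCs had 22929, 20669 and 18461. All 7 marrow libraries lay above all 3 P-SSC libraries, and both marrow groups overlapped. Bgn was 3.66 times higher in graft BM-MSCs than in P-SSCs (log2 change 1.85 ± 0.19, adjusted p = 0.000128), with 2.01 against P-SSC 4 alone. In P-SSCs against BM-MSCs the log2 change was -1.61 ± 0.21 (adjusted p = 0.000596). Between the marrow groups it was 0.24 with a 95% interval from -0.18 to 0.67 (adjusted p = 0.455). Bgn was the single member that was higher in grafts than in P-SSCs.

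Asporin, encoded by Aspn, lacks a glycosaminoglycan chain, binds collagen and is found in periosteum and periodontal ligament. In the P-SSC libraries Aspn stood at 5009.7, 4886 and 4191 normalized counts. BM-MSC 1, 2+4 and 3 had 156, 129 and 17.8, and graft BM-MSC 1 to 4 had 0, 0, 114 and 204. P-SSCs lay above all marrow libraries, and the marrow libraries spread from 0 to 204 with both groups overlapping. In graft BM-MSCs against P-SSCs the log2 change was -8.56 ± 1.92 (adjusted p = 0.0108). The call was lost without P-SSC 1 (adjusted p = 0.0505), with the batch as a covariate (0.169) and in edgeR on recovered reads (0.0506), where the log2 change was -5.79. In P-SSCs against BM-MSCs the log2 change was 6.01 ± 2.05 and did not pass the test (adjusted p = 0.112), although the groups did not overlap. It passed with a pseudocount of 5 (5.90, adjusted p = 0.0236), after quantile normalization (6.30, adjusted p = 0.0289), in the fit of these 2 groups alone (6.01, adjusted p = 0.00484) and in DESeq2 on recovered reads (5.57, adjusted p = 0.0486). Within the batch that holds P-SSC 1, P-SSC 2+5 and all BM-MSCs it was 6.09 (adjusted p = 0.0215), an alternative chosen after seeing the data.

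Fibromodulin, encoded by Fmod, is a keratan sulfate proteoglycan of tendon, ligament and bone that binds collagen and takes part in its cross-linking. P-SSC 1, 2+5 and 4 had Fmod at 82273, 78213 and 52492 normalized counts. BM-MSC 1, 2+4 and 3 had 3958, 3854 and 1443, and graft BM-MSC 1 to 4 had 332, 1278, 2020.15 and 1432. P-SSCs again stood apart, and the marrow groups overlapped through BM-MSC 3. Fmod was 56.1 times lower in graft BM-MSCs than in P-SSCs (log2 change -6.05 ± 0.58, adjusted p = 7.99e-05) and 23.0 times higher in P-SSCs than in BM-MSCs (4.63 ± 0.62, adjusted p = 0.000718). Against P-SSC 4 alone the graft difference was -5.64. Between the marrow groups it was -1.41 with a 95% interval from -2.69 to -0.13, which did not pass the test (adjusted p = 0.160).

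Lumican, encoded by Lum, is the nearest relative of fibromodulin and competes with it for a site on collagen. Lum stood at 19854, 17718 and 12220.5 normalized counts in the P-SSC libraries, while BM-MSC 1, 2+4 and 3 had 8025, 9465 and 6655. In graft BM-MSC 1 to 4 it was 632, 12018, 6218 and 3968. Graft BM-MSC 1 lay lowest of all libraries and graft BM-MSC 2 reached almost to P-SSC 4, so that the grafts spanned the BM-MSCs and fell just short of the P-SSCs. The log2 change against P-SSCs was -2.13 ± 0.78 with an adjusted p of 0.0838, and it passed the test without graft BM-MSC 1 (-1.29, adjusted p = 0.0484) or without graft BM-MSC 2 (-2.70, adjusted p = 0.0270). In P-SSCs against BM-MSCs it was 1.03 with a 95% interval from -0.81 to 2.87 (adjusted p = 0.694), with no overlap between these groups. It passed in the fit of these 2 groups alone (1.03, adjusted p = 0.0490) and within the batch that holds P-SSC 1, P-SSC 2+5 and all BM-MSCs (1.24, adjusted p = 0.0205), the latter chosen after seeing the data.

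Keratocan, the product of Kera, is best known from the corneal stroma and is also made in tendon and ligament. Kera stood at 2521, 2813 and 2019 normalized counts in P-SSCs, and no read of it was counted in any of the 7 marrow libraries. With a floor of 3 reads per library, graft BM-MSCs had at least 997-fold less Kera than P-SSCs (adjusted p = 3.36e-05) and P-SSCs at least 794-fold more than BM-MSCs (adjusted p = 6.78e-05). No fold can be given between the marrow groups. The summed normalized count of Scx, Tnmd, Mkx and Thbs4, the other markers of tendon and ligament examined, was 13916 to 42803 in P-SSCs against 93.7 to 157 in BM-MSCs and 0 to 347 in graft BM-MSCs, with Thbs4 at 0 in all grafts. That sum rests on Thbs4 and Tnmd, the 2 of these 4 markers that were higher in P-SSCs than in BM-MSCs. Thbs4 passed the filter on low values only through P-SSCs, with a mean of 4.45 in BM-MSCs. Scx stood at 18.7, 3.82 and 798 in P-SSC 1, 2+5 and 4 against 1.04 to 20.7 in BM-MSCs, and Mkx at 128 to 168 in P-SSCs against 69.0 to 128 in BM-MSCs and 0 to 276 in grafts. The part of such cells in the levels of Kera, Fmod and Aspn was not tested.

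PRELP, encoded by Prelp, is a basic member that links collagen to heparan sulfate of basement membranes. Prelp stood at 32087, 27539 and 26517 normalized counts in P-SSCs and 18302, 20506 and 16581 in BM-MSCs. In graft BM-MSC 1 to 4 it was 31546, 16796, 27033 and 29584. Graft BM-MSC 2 lay among the BM-MSCs and the other 3 grafts lay among or close to the P-SSCs. No difference passed the test: it was -0.17 on the log2 scale in grafts against P-SSCs (95% interval -0.65 to 0.32), 0.47 in grafts against BM-MSCs (-0.01 to 0.95) and 0.64 in P-SSCs against BM-MSCs (0.12 to 1.153), with adjusted p of 0.626, 0.205 and 0.140. In grafts against BM-MSCs the difference passed the test without graft BM-MSC 2 (0.67, adjusted p = 0.0489), after quantile normalization (0.86, adjusted p = 0.0493) and after GC correction (1.20, adjusted p = 0.0121), and in P-SSCs against BM-MSCs it passed when graft BM-MSC 2 was left out of the fit (adjusted p = 0.0465). The sign of the difference between grafts and P-SSCs turned under 4 settings.

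Osteomodulin, encoded by Omd, is a keratan sulfate proteoglycan of mineralized bone. Omd stood at 1056, 852 and 620.4 normalized counts in P-SSCs, 629, 677 and 449 in BM-MSCs, and 437, 584, 842 and 1766 in graft BM-MSC 1 to 4. All 3 groups overlapped, with graft BM-MSC 4 the highest of all libraries and graft BM-MSC 1 the lowest. The log2 change in grafts against P-SSCs was -0.07 with a 95% interval from -1.12 to 0.98 and changed sign under 9 settings.

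Osteoglycin, also called mimecan and encoded by Ogn, is a class III member known from bone, where it was first isolated as a bone-inducing factor. Its normalized count was 19052, 16713 and 13772 in P-SSCs and 6685, 4389 and 3478 in BM-MSCs. In graft BM-MSC 1 to 4 it was 5100.35, 4709, 6608 and 5670.5. The grafts lay within the range of the BM-MSCs, and all marrow libraries lay below the P-SSCs. Ogn was 2.99 times lower in grafts than in P-SSCs (log2 change -1.58 ± 0.24, adjusted p = 0.00120) and 3.40 times higher in P-SSCs than in BM-MSCs (1.81 ± 0.26, adjusted p = 0.00110). Between the marrow groups the difference was 0.23 with a 95% interval from -0.31 to 0.77.

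Podocan, encoded by Podn, binds type I collagen and is known from smooth muscle and kidney. Its normalized count was 1331, 1381 and 5417 in P-SSC 1, 2+5 and 4, and 2365, 1101 and 1819.7 in BM-MSCs. In graft BM-MSC 1 to 4 it was 664, 869, 5559.96 and 1728. A single library in each of 2 groups, P-SSC 4 and graft BM-MSC 3, was several times higher than the rest of its group. None of its differences passed the test, and the sign of the difference between P-SSCs and BM-MSCs turned from 0.36 to -0.31 without P-SSC 4.

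Counted over the family, 6 of 10 members differed between graft BM-MSCs and P-SSCs, 1 higher and 5 lower, where 18.1% of all genes tested differed, 6.08% higher and 12.0% lower. Without Kera the count was 5 of 9. In P-SSCs against BM-MSCs 5 of 10 differed, 4 higher and 1 lower (4 of 9 without Kera), where 9.15% of all genes did, 4.57% higher and 4.58% lower. In graft BM-MSCs against BM-MSCs 1 of 9 members differed, Dcn, which was lower, where 7.67% of all genes did, 2.61% higher and 5.06% lower. GC correction and quantile normalization each also called 1 member there, Prelp, which was higher, and lost Dcn. Over all genes, 830 were higher and 1634 lower in grafts than in P-SSCs, against 1247 and 1241 after quantile normalization and 1243 and 1088 after GC correction. In grafts against BM-MSCs 356 were higher and 690 lower, against 588 and 435 and against 619 and 392. With the batch as a covariate no member passed the test between the marrow groups, nor did any other gene of the family or any gene named here from the lists below, and 40 of all genes did. The values of the groups did not overlap for 7 members in grafts against P-SSCs, for 8 in P-SSCs against BM-MSCs and for 1 in grafts against BM-MSCs, beside 26.6%, 30.9% and 25.0% of all genes tested. Without Kera the first 2 counts were 6 of 9 and 7 of 9. The median log2 change of the members was -1.86 in grafts against P-SSCs, 1.42 in P-SSCs against BM-MSCs and -0.13 in grafts against BM-MSCs, and setting Kera at its bound changed none of these medians. Each pair of these comparisons shares a group, so they are not independent of each other.

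**Figure D2:**
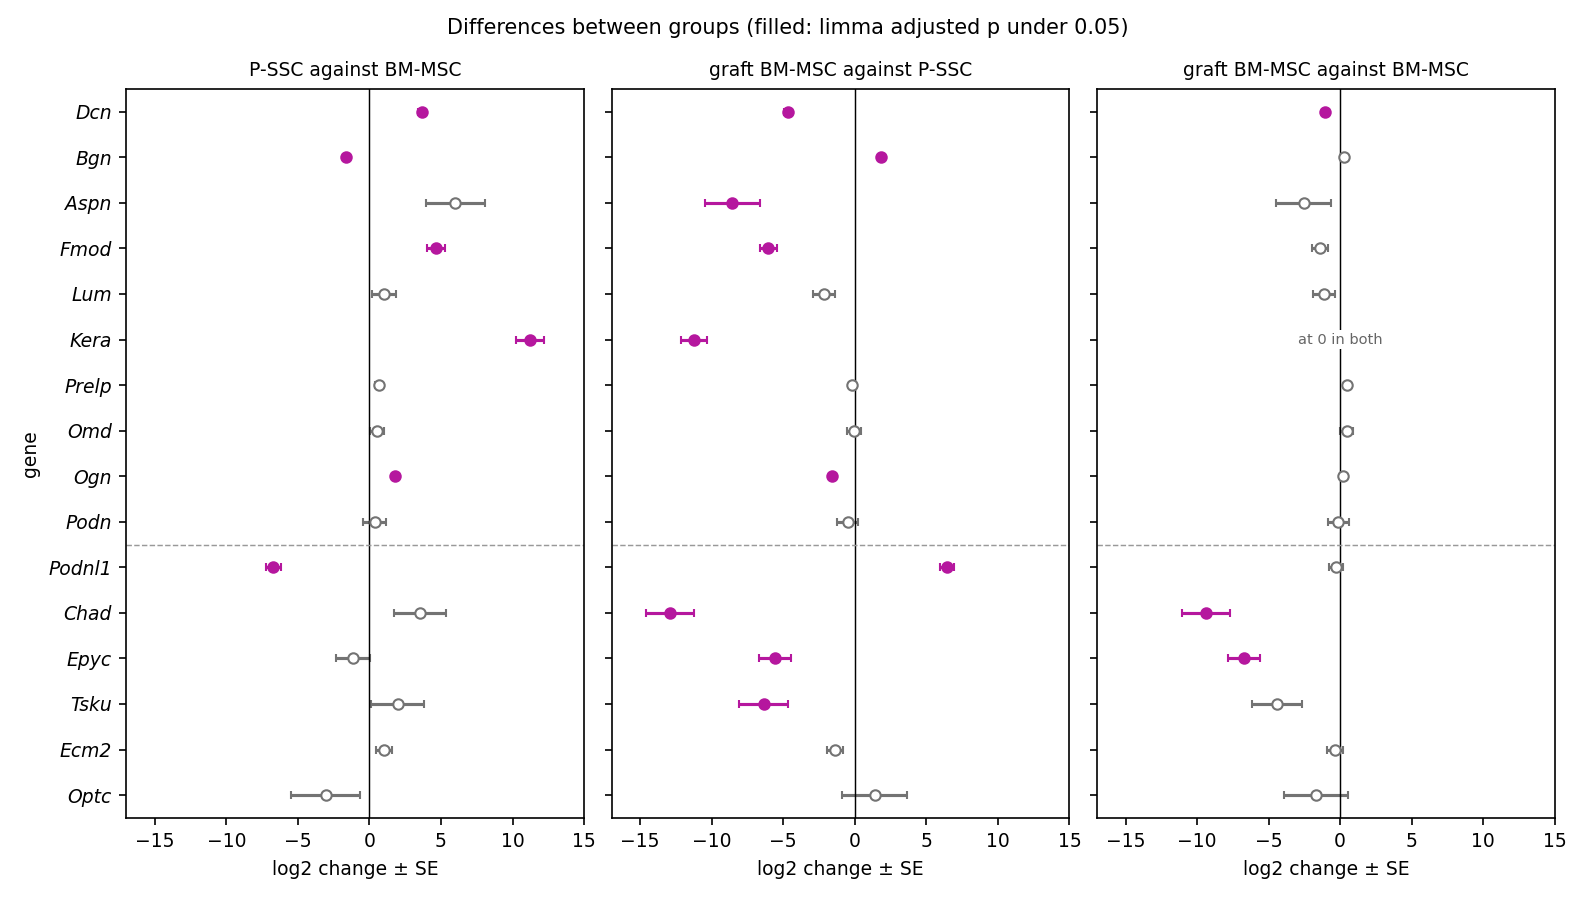
Log2 change with its standard error (bars) for the 10 SLRP genes and, below the dashed line, 6 further genes of the family, in P-SSCs against BM-MSCs, graft BM-MSCs against P-SSCs and graft BM-MSCs against BM-MSCs. Filled points passed limma at an adjusted p under 0.05, which 5, 6 and 1 of the 10 genes did, and Kera has no value in the third panel because it was at 0 in both groups. Points of genes at 0 in a whole group, Kera and Epyc, depend on the added 1 and are no bounds.

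Levels of different genes were compared per kb of the longest annotated transcript. That length was 4.692 kb for Dcn, 2.666 kb for Bgn and 3.615 kb for Prelp. Which transcripts the cells used was not examined, and the levels, shares and ratios per kb depend on these lengths. In P-SSCs Dcn stood at 91438 ± 18176 normalized counts per kb (SD, n = 3), the fifth highest of all genes tested, followed by Fmod at 22754 ± 5176, and both stood clear of the next member and of each other. Prelp, Bgn, Lum and Ogn followed between 7943 and 6435 per kb with ranges that overlapped from neighbour to neighbour, then Aspn at 2016, Kera at 1075, Podn at 745 and Omd at 375. In BM-MSCs the order began with Bgn at 23751 ± 3596, Dcn at 7278 ± 1610, Prelp at 5107, Lum at 3288 and Ogn at 1890.3, and no neighbours in it overlapped apart from Fmod and Podn. In graft BM-MSCs Bgn led at 28420 ± 6332 (SD, n = 4) with no overlap to the next gene, Prelp at 7259, and Prelp, Dcn, Lum and Ogn then overlapped from one to the next.

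The make-up of the family differed between periosteal and marrow libraries. Of the summed level per kb of the 10 genes, Dcn made up 60.6% to 63.8% in P-SSC libraries, 14.9% to 18.4% in BM-MSC libraries and 5.16% to 11.0% in graft libraries. Bgn made up 4.82% to 5.95%, 54.4% to 55.8% and 56.9% to 68.7%. Fmod held 14.5% to 16.0% in P-SSCs and at most 2.94% in any marrow library, whereas Prelp held 4.73% to 6.30%, 11.4% to 12.6% and 12.1% to 19.9%. The 10 genes together took 2.82% ± 0.33 of all normalized counts in P-SSCs, 0.705% ± 0.078 in BM-MSCs and 0.916% ± 0.155 in graft BM-MSCs (SD), without correction for length. These shares are descriptions and were not tested.

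**Figure D3:**
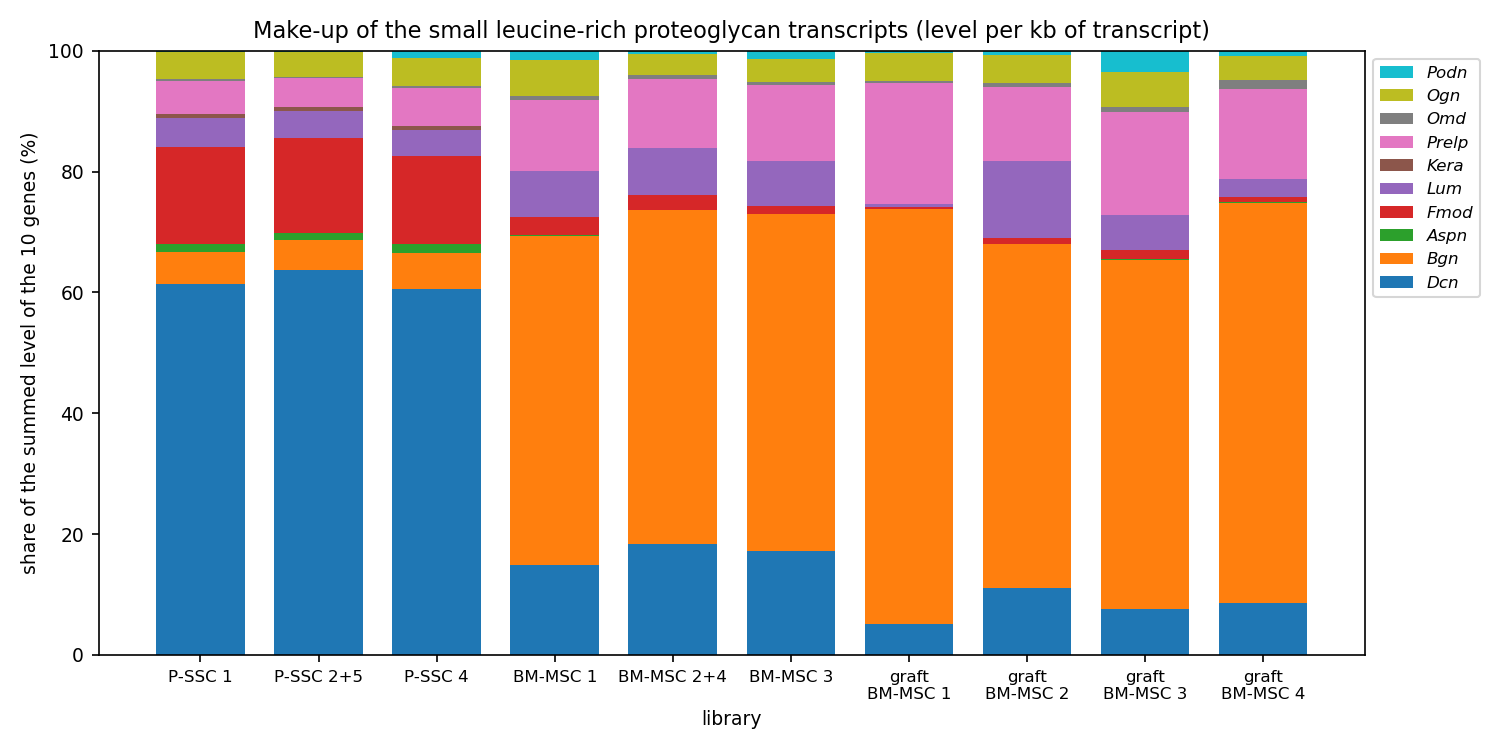
Share of each SLRP gene in the summed level per kb of the 10 genes, as stacked bars that add up to 100% for each of the 10 libraries. Dcn held over 60% of every P-SSC bar and Bgn over 54% of every marrow bar.

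Ratios of close relatives within a library do not depend on the scaling of that library. The pairs differ in GC content, at 37.4% for Dcn, 51.2% for Bgn, 53.7% for Fmod and 41.9% for Lum. The ratios were not corrected for GC content, and its part in them was not tested. The ratio of Dcn to Bgn per kb was 11.8, 13.2 and 10.2 in P-SSC 1, 2+5 and 4, and 0.275, 0.333 and 0.308 in BM-MSC 1, 2+4 and 3. In graft BM-MSC 1 to 4 it was 0.0751, 0.194, 0.132 and 0.130. On the log2 scale the means were 3.54 ± 0.19, -1.72 ± 0.14 and -2.99 ± 0.56 (SD), and the 3 groups did not overlap. The ratio of Fmod to Lum was 3.25, 3.46 and 3.37 in P-SSCs. It was 0.387, 0.319 and 0.170 in BM-MSCs and 0.412, 0.0834, 0.255 and 0.283 in graft BM-MSC 1 to 4, and the marrow groups overlapped. P-SSC 4, the P-SSC library of the grafts' batch, had ratios close to those of the other P-SSCs in both pairs.

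**Figure D4:**
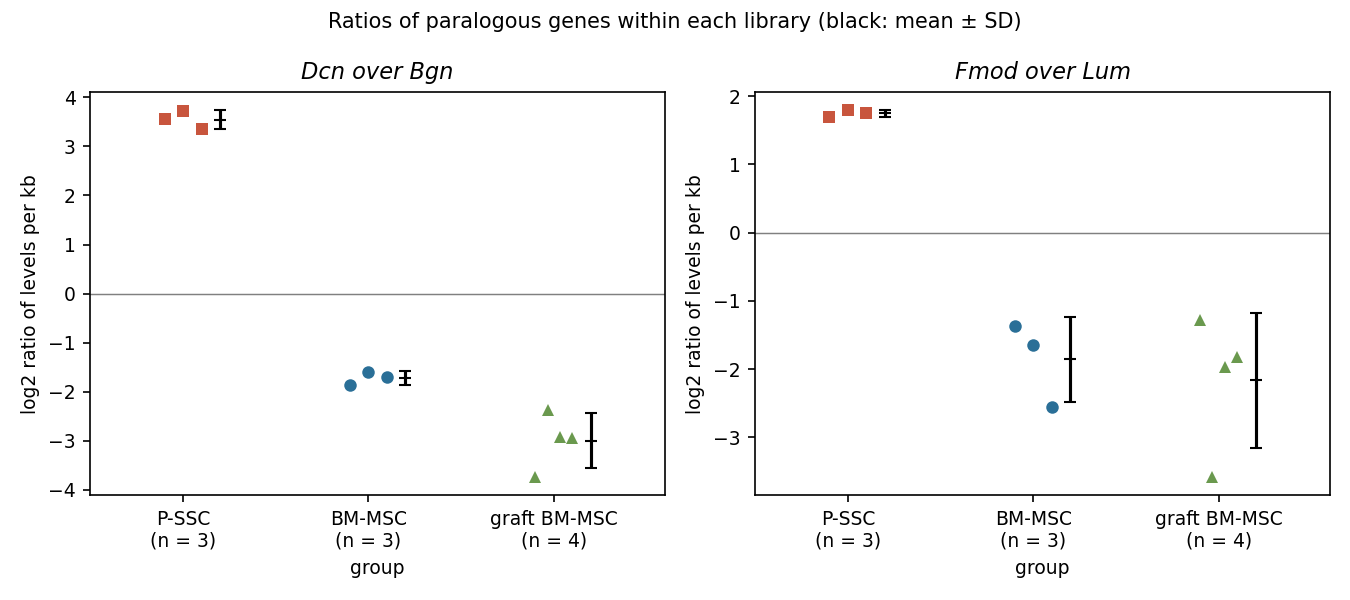
Log2 ratio of the levels per kb of Dcn to Bgn (left) and of Fmod to Lum (right), with 1 point per library and the mean ± SD of each group in black. Both ratios lay above 0 in all 3 P-SSC libraries and below 0 in all 7 marrow libraries, with group means of 3.54, -1.72 and -2.99 on the left.

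Neighbours on chromosomes 1 and 13 did not share one pattern between grafts and P-SSCs. On chromosome 10 the graft values of Dcn, Lum, Kera and Epyc all lay below those of P-SSCs, and Lum alone was not called. Next to Kera, which was at 0 in marrow, Lum had 632, 12018, 6218 and 3968 normalized counts in graft BM-MSC 1 to 4. On chromosome 13 Aspn and Ogn were lower in grafts than in P-SSCs while the groups overlapped for Omd, which lies between them. On chromosome 1 Fmod was lower in grafts than in P-SSCs and Prelp was not called. Of the exon bases, Aspn shares 7 of 2354 with Cenpp and Prelp shares 350 of 3615 with the antisense gene Gm15851. Whether the counting used strand is not stated, so reads there cannot be assigned with certainty. Cenpp itself reached at most 173 normalized counts in any library.

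**Figure D5:**
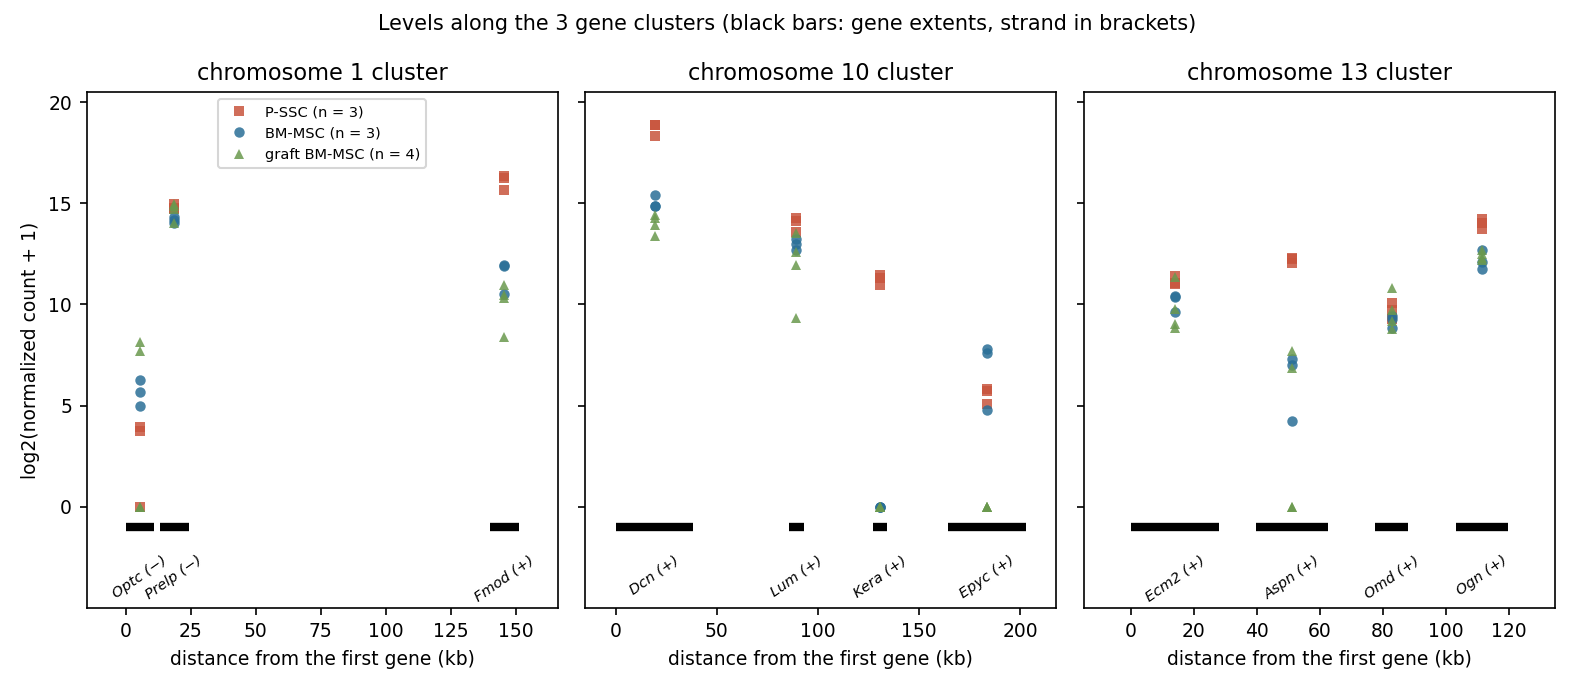
Levels of the SLRP genes as log2(normalized count + 1) along their clusters on chromosomes 1, 10 and 13, with 1 point per library and the distance in kb from the start of the first gene. Kera, flanked by Lum and Epyc, was at 0 in all 7 marrow libraries, and Omd overlapped between groups while Aspn on one side and Ogn on the other were higher in all P-SSC libraries.

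Further genes of the family came from a list of 7, of which 6 were in the table and tested. Podnl1, the podocan-like relative of Podn, had 4322, 5527, 3724 and 2788 normalized counts in graft BM-MSC 1 to 4, 5244, 5159 and 4118 in BM-MSCs and 23.9, 107 and 34.9 in P-SSCs. Podnl1 followed marrow as Bgn did: it was higher in grafts than in P-SSCs by 6.44 ± 0.47 on the log2 scale (adjusted p = 1.96e-05) and lower in P-SSCs than in BM-MSCs, at -6.71 ± 0.50 (adjusted p = 2.50e-05). Chad encodes chondroadherin, a cartilage protein that binds integrins. Chad stood at 44663, 23976 and 25980.3 normalized counts in P-SSCs, 2349.8, 4116 and 1809.8 in BM-MSCs, and 0 in 3 grafts with 244 in graft BM-MSC 2. It was lower in grafts than in P-SSCs (-12.90 ± 1.68, adjusted p = 0.000452) and than in BM-MSCs (-9.36 ± 1.68, adjusted p = 0.00964), the second of which was lost in edgeR on recovered reads (adjusted p = 0.111) and with the batch as a covariate (0.483). Epyc, encoding epiphycan of growth plate cartilage, had no read in any graft library, 225, 195 and 26.6 normalized counts in BM-MSCs and 33.2, 56.0 and 52.3 in P-SSCs. It was at least 60.5-fold lower in grafts than in BM-MSCs (adjusted p = 0.00642) and at least 19.2-fold lower than in P-SSCs (adjusted p = 0.00584), and both calls were lost after quantile normalization (adjusted p = 0.0508 and 0.132), and with the batch as a covariate (0.247 and 0.0597). Epyc shares 1041 of its 2561 exon bases with Gm10754 on the other strand.

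Of 5 cartilage markers examined beside Chad and Epyc, 3 (Acan, Col9a1 and Cnmd) were lower in grafts than in BM-MSCs and 0 were higher. Col9a1 passed the filter on low values only through BM-MSCs, with a mean of 2043 there and 0 in grafts and P-SSCs. It is included in that count. The summed normalized count of Sox9, Col2a1, Acan, Col9a1 and Cnmd was 32852 to 72340 in BM-MSCs, 656 to 3884 in grafts and 672 to 1633 in P-SSCs, with Acan, Col9a1 and Cnmd at 0 in all grafts. Col2a1 made up most of the sum in BM-MSCs and did not pass the test there (adjusted p = 0.0753). Sox9, the transcription factor of cartilage cells, stood at 114, 656, 933 and 318 normalized counts in graft BM-MSC 1 to 4, above the 65.8, 23.2 and 28.6 of BM-MSC 1, 2+4 and 3, which did not pass the test either (3.41, adjusted p = 0.0946). The part of cartilage cells in the levels of Chad and Epyc was not tested. Tsku encodes tsukushi, a secreted class IV member. Its normalized count was 2.82, 0, 1.01 and 294 in graft BM-MSC 1 to 4, 83.5, 188 and 195 in BM-MSCs and 378, 673 and 739.6 in P-SSCs. The difference between grafts and P-SSCs was -6.38 ± 1.74 (adjusted p = 0.0287). Leaving out P-SSC 1, 2+5 or 4, graft BM-MSC 1 or graft BM-MSC 3 ended the call, at -5.78 to -6.68 with adjusted p of 0.0568 to 0.103, the batch as a covariate gave -6.75 (0.220), the fit of these 2 groups 0.102 as the adjusted p, and edgeR on recovered reads -2.91 (0.348). Ecm2 ranged from 458 to 2631 in grafts, 778 to 1381 in BM-MSCs and 2064 to 2681 in P-SSCs, and Optc from 0 to 279.96, 30.6 to 76.2 and 0 to 14.5, with no difference that passed the test. Of the 6 genes, 1 was higher and 3 lower in grafts than in P-SSCs, 2 were lower in grafts than in BM-MSCs and 1 was lower in P-SSCs than in BM-MSCs, beside 18.1%, 7.67% and 9.15% of all genes tested that differed.

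SLRPs bind fibrillar and fibril-associated collagens, and 14 genes of these collagens were tested. Of them 12 were lower and 0 higher in graft BM-MSCs than in P-SSCs, where 12.0% of all genes were lower. In grafts against BM-MSCs 6 were lower, 0 were higher and 8 did not pass the test, where 5.06% of all genes were lower. In P-SSCs against BM-MSCs 5 were higher and 0 lower, where 4.57% of all genes were higher. The 3 comparisons had median log2 changes of -2.91, -1.35 and 0.60 beside -0.47, -0.53 and 0.00 over all genes tested. Col14a1, which sits on the surface of fibrils and binds decorin, had 17105 to 19793 normalized counts in P-SSCs and at most 5.18 in any marrow library. Col14a1 passed the filter on low values only through P-SSCs, with means of 2.55 in grafts and 2.43 in BM-MSCs. It is included in the counts above. Its log2 change was -12.84 in grafts and 12.44 in P-SSCs, against P-SSCs and BM-MSCs respectively (adjusted p = 4.97e-05 and 0.000127). Col3a1 had a mean of 579925 in P-SSCs against 23634 in BM-MSCs and 14270 in grafts, and differed by 4.70 in P-SSCs against BM-MSCs and by -5.66 in grafts against P-SSCs (adjusted p = 0.000677 and 0.000117). Col11a1 and Col11a2, minor collagens of cartilage fibrils, had means of 7860 and 10747 in BM-MSCs, 1234 and 1722 in P-SSCs and 201 and 333 in grafts. Both were lower in grafts than in BM-MSCs (log2 changes -6.46 and -6.05, adjusted p = 0.00491 for each). They were also lower in grafts than in P-SSCs (-3.79 and -3.34, adjusted p = 0.0248 and 0.0314).

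Of 28 enzymes tested that build the glycosaminoglycan chains, 5 were higher and 2 lower in grafts than in P-SSCs, 1 was higher and 1 lower in grafts than in BM-MSCs, and 1 was higher and 2 lower in P-SSCs than in BM-MSCs, beside 18.1%, 7.67% and 9.15% of all genes that differed in these comparisons. The sulfotransferases Chst2 and Chst5, which act on keratan sulfate, were higher in grafts than in P-SSCs, with means of 1112 against 27.8 for Chst2 (log2 change 5.59, adjusted p = 0.000305) and 497 against 7.33 for Chst5 (6.49, adjusted p = 0.00239). Chst2 was also higher in grafts than in BM-MSCs, whose mean was 89.8 (3.62, adjusted p = 0.0121), and Chst5 was lower in P-SSCs than in BM-MSCs, whose mean was 397 (-6.27, adjusted p = 0.00628). Chst12, a chondroitin sulfotransferase, was lower in grafts than in P-SSCs (-2.24, adjusted p = 0.00121), which was lost with the batch as a covariate (-1.75, adjusted p = 0.0575). It was higher in P-SSCs than in BM-MSCs (1.71, adjusted p = 0.0132), which was lost without BM-MSC 1, P-SSC 1 or P-SSC 2+5 (adjusted p = 0.0535 to 0.0633), with median centring (0.0593) and after GC correction (0.0576). Csgalnact1, which starts chondroitin chains, had means of 1.27 in grafts, 102 in BM-MSCs and 199 in P-SSCs, and was lower in grafts than in P-SSCs (-6.77, adjusted p = 0.00309) and than in BM-MSCs (-5.80, adjusted p = 0.0189). The first call of Csgalnact1 was lost with the batch as a covariate (-5.66, adjusted p = 0.0823). The second was lost without BM-MSC 1 (0.0755) or BM-MSC 3 (0.0608), after quantile normalization (-4.02, adjusted p = 0.0886) and in edgeR on recovered reads (-6.15, adjusted p = 0.0851). Chst11, another chondroitin sulfotransferase, had means of 12.6 in P-SSCs and 190.1 in BM-MSCs (-5.26, adjusted p = 0.0328), lost without any one of the 3 BM-MSC libraries, P-SSC 1 or P-SSC 2+5 (adjusted p = 0.0905 to 0.128), with a pseudocount of 0.1 (0.0658), in the fit of these 2 groups (0.0652) and in edgeR on recovered reads (0.223).

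Among 15 growth factors and receptors that members of the family bind, 3 were higher and 3 lower in grafts than in P-SSCs, 2 were higher and 1 lower in grafts than in BM-MSCs, and 1 was higher and 2 lower in P-SSCs than in BM-MSCs, where 18.1%, 7.67% and 9.15% of all genes tested differed. Egfr, a receptor that decorin binds, had a mean of 1122 in grafts, 3860.4 in BM-MSCs and 6020.5 in P-SSCs, and was lower in grafts than in either (-1.77, adjusted p = 0.00258, and -2.39, adjusted p = 8.90e-05), the first of which was lost after GC correction (-1.37, adjusted p = 0.0643). Bmp4, a ligand that biglycan binds, had means of 4604 in grafts, 7726 in BM-MSCs and 1185 in P-SSCs, and was lower in P-SSCs than in BM-MSCs (-2.70, adjusted p = 7.96e-05). Bmp6 had means of 7252, 1747 and 592 and was higher in grafts than in P-SSCs (3.88, adjusted p = 0.000202), while its other 2 calls, 2.04 in grafts against BM-MSCs and -1.84 in P-SSCs against BM-MSCs, were fragile. The first was lost without any one BM-MSC library (adjusted p = 0.0563 to 0.0914), and the second without any one BM-MSC library, graft BM-MSC 1 or 4, or P-SSC 1 or 2+5 (0.0531 to 0.131), and edgeR on recovered reads lost both (0.0593 and 0.111). Lrp1, an uptake receptor for decorin, was higher in P-SSCs than in BM-MSCs (1.41, adjusted p = 0.0154, but 0.0726 without BM-MSC 1, 0.0784 without P-SSC 1, 0.0523 after GC correction and 0.0571 in edgeR on recovered reads). Ccn2 was higher in grafts than in P-SSCs (2.90, adjusted p = 0.0116), a call lost without P-SSC 1 (2.65, adjusted p = 0.0614), with the batch as a covariate (0.88, adjusted p = 0.364), in the fit of these 2 groups alone (adjusted p = 0.0593) and in edgeR on recovered reads (2.23, adjusted p = 0.0749). Tgfb2 was lower there (-6.25, adjusted p = 0.0427) and kept the call only without graft BM-MSC 1 or 4, with adjusted p of 0.0686 to 0.141 without any one of the others and 0.230 in edgeR on recovered reads. Bmp2 was higher in grafts than in BM-MSCs (3.63, adjusted p = 0.0375), which was lost without any one BM-MSC library, graft BM-MSC 1, 3 or 4, or P-SSC 2+5 (adjusted p = 0.0510 to 0.129), and in edgeR on recovered reads (0.0748).

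Of 13 proteases that process or cut SLRPs, 2 were higher and 4 lower in grafts than in P-SSCs, 1 was higher in grafts than in BM-MSCs, and 3 were higher and 2 lower in P-SSCs than in BM-MSCs, against 18.1%, 7.67% and 9.15% of all genes tested. Mmp13, a collagenase that also cuts fibromodulin, had means of 8868 in grafts, 23550 in BM-MSCs and 428 in P-SSCs, and was higher in grafts than in P-SSCs (4.42, adjusted p = 4.21e-05) and lower in P-SSCs than in BM-MSCs (-5.78, adjusted p = 1.39e-05). Mmp9 was at 0, 0 and 5.82 in P-SSCs, with means of 1439 in grafts and 2691 in BM-MSCs (9.54 and -10.37, adjusted p = 2.57e-05 and 3.02e-05). Mmp2 and Mmp3, which cut decorin, ran the other way, with means of 47613 and 1061 in P-SSCs against 6450.05 and 1.55 in grafts (-3.06 and -9.16, adjusted p = 0.000557 and 0.000714). Mmp3 was also higher in P-SSCs than in BM-MSCs (8.20, adjusted p = 0.00295), as was Adamts5, an aggrecanase (2.99, adjusted p = 0.00115). Mmp3 passed the filter on low values only through P-SSCs, with means of 1.55 in grafts and 3.84 in BM-MSCs. It is included in the counts above. Mmp14 was higher in grafts than in BM-MSCs (2.92, adjusted p = 0.0259), which was lost without any one BM-MSC library or graft BM-MSC 1, 3 or 4 (adjusted p = 0.0525 to 0.0975) and in edgeR on recovered reads (0.0692), and turned to -0.21 with the batch as a covariate.

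Other proteoglycans, among them aggrecan, syndecans and glypicans, moved in both directions: of 18 tested, 3 were higher and 8 lower in grafts than in P-SSCs, 1 was higher and 3 lower in grafts than in BM-MSCs, and 3 were higher and 2 lower in P-SSCs than in BM-MSCs. The shares of all genes tested that differed there were 18.1%, 7.67% and 9.15%. Sdc1, a heparan sulfate proteoglycan of the cell surface, had means of 7932 in grafts, 6618 in BM-MSCs and 403 in P-SSCs and was lower in P-SSCs than in either, with log2 changes of 4.95 in grafts against P-SSCs and -4.67 in P-SSCs against BM-MSCs (adjusted p = 0.000314 and 0.000907). Gpc3 had means of 32.1, 253 and 11515 and was lower in grafts than in P-SSCs (-11.71, adjusted p = 0.000509). Acan had no read in any graft and a mean of 1256 in BM-MSCs, at least 511-fold more (adjusted p = 0.00182), and was lower in P-SSCs than in BM-MSCs (-5.02, adjusted p = 0.0346), lost without any one BM-MSC library, P-SSC 1 or P-SSC 4 (adjusted p = 0.0918 to 0.152) and in edgeR on recovered reads (0.130). Cspg4, which marks pericytes, was at 0 in 3 grafts with 40.3 in graft BM-MSC 3, and was lower there than in BM-MSCs (-8.33, adjusted p = 0.00562) and P-SSCs (-8.69, adjusted p = 0.00115). The first of these was lost in edgeR on recovered reads with and without the filter on low values (-6.44 in both, adjusted p = 0.0708 and 0.0702). Sdc3 was higher in grafts than in P-SSCs (4.92, adjusted p = 0.00118) and than in BM-MSCs (2.86, adjusted p = 0.0456), the second lost without any one BM-MSC library, graft BM-MSC 1, 3 or 4, or P-SSC 1 (adjusted p = 0.0550 to 0.153) and in edgeR on recovered reads (0.0773), and turned to -0.21 with the batch as a covariate. Spock2 and Spock3 passed the test in P-SSCs against BM-MSCs (adjusted p = 0.0425 and 0.0496), with 566, 196 and 451 normalized counts of Spock2 and 34.3, 1.27 and 79.5 of Spock3 in P-SSC 1, 2+5 and 4. Spock2 kept the call only without graft BM-MSC 1 or 2 (adjusted p of 0.0509 to 0.153 without any one of the others), and Spock3 only without P-SSC 2+5 (0.0574 to 0.137). EdgeR on recovered reads called neither (adjusted p = 0.288 for Spock2 and 0.223 for Spock3). Spock3, at 0 in all graft and BM-MSC libraries, passed the filter on low values only through P-SSCs and is included in the counts above.

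Patterns over the 10 libraries were compared by Pearson's r of log2(normalized count + 1), as a description. The libraries fall into 3 groups, so r reflects the group differences above and the make-up of the libraries together. Among members, Dcn ran closest to Fmod (r = 0.980) and Kera (0.965), and opposite to Bgn (-0.938). Bgn had a negative r with all 9 other members, from -0.005 for Omd to -0.958 for Kera. Among all genes tested with a mean of at least 100, the most like Dcn were Crip2 (0.997), Cd34 (0.985) and Lvrn (0.985). The most like Bgn were Pparg (0.988), Glipr1 (0.981) and Mrps6 (0.978), of which Pparg had means of 2191 in grafts, 1176 in BM-MSCs and 49.2 in P-SSCs. For Fmod they were Anpep (0.983), Tmem107 (0.981) and Crip2 (0.981), and for Aspn Ntrk2 (0.985), Cyb561 (0.979) and Itgbl1 (0.969).

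The genes most like Lum were Mafk (0.974), Glul (0.971) and Cyth1 (0.967), those most like Prelp were Zbtb20 (0.908), Mfap5 (0.877) and Mtch2 (0.874), and those most like Omd were Gm14326 (0.904), Tdrd3 (0.859) and Plin2 (0.846). For Podn they were Ctu1 (0.915), Oxct1 (0.911) and Dvl1 (0.859). The closest to Kera, 4930404H11Rik (0.99996), Gpr1 (0.9999) and Bnc2 (0.9995), were all at 0 in every marrow library, as Kera was, so their r rests on that split.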

How the data were processed

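mRNA of CD45-Ter119-CD31-CD51+CD200+ sorted cells was sequenced in 10 libraries. The authors deposited a signal per gene, the normalized count, which is a read count divided by 1 size factor per library. Per the submitters' processing notes, cutadapt 1.15, FastQC 0.11.5, STAR 2.5, featureCounts of Subread 1.4.6, DESeq2 1.26.0 and GRCm39 were used, whereas the methods name GRCm38. Strand setting, annotation release and filter are not given in the sources used here. Some samples joined RNA from more than 1 mouse, and per the methods different mice gave each replicate, so p-values measure the spread between mice or pools of mice.

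The members and lists were chosen with earlier results of these data known. Of 15078 genes, the 13644 with a mean no lower than 10 were tested on log2(normalized count + 1) with limma 3.58.1 in R 4.3.3, with 1 mean per group, a trend in the variance, 7 residual degrees of freedom, two-sided tests and Benjamini-Hochberg adjustment. Whole reads, recovered for 100% of values within 0.01 reads, served edgeR 4.0.16 and DESeq2 1.42.0 as alternatives. Floors of 3 reads per library and depths of 15415421 to 25223295 reads cover counting error only. No column of samples was left unused. GENCODE M21 on GRCm38 gave coordinates, lengths and GC content (15052 gene IDs matched, 26 not), and RefSeq on GRCm38.p6 gave promoters (8 of 10 members matched, not Dcn and Lum). The limma and edgeR fits were tested on simulated data. Python 3.11.15, numpy 2.4.6, pandas 2.3.3, scipy 1.17.1 and matplotlib 3.10.9 were used.

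All members and the further genes of the family were named. From each other list, up to 2 genes with the largest rise and up to 2 with the largest fall among those past the threshold were named in each comparison, and for each member the 3 genes with the highest Pearson's r, except for Ogn, whose matches are not reported here. Other pseudocounts, filters, scalings, a GC correction (loess span 0.3), the batch as a covariate, a replicate block, fits of 2 groups, a threshold of 0.01 and leaving out each library were tried.

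Marker lists beyond those described in the report gave summed normalized counts, in graft BM-MSCs, BM-MSCs and P-SSCs, of 667905 to 819818, 830908 to 1131720 and 4579 to 8883 for marrow niche stroma, 247 to 1109.8, 3918 to 5141 and 234877 to 447070 for periosteum and fibroblasts, 54689 to 71808, 216415 to 261775 and 6240 to 21166 for osteoblasts, 5504 to 59124, 64873 to 194332 and 588 to 3166 for blood cells, 0 to 155, 0 to 47.5 and 243 to 1080.2 for muscle, and 2573 to 3962, 2058 to 3507 and 1781 to 2467 for the sorted antigens Itgav and Cd200.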

Additional observations from a re-analysis of the deposited data

Results flagged for a closer look

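In graft BM-MSCs, 2 genes of the family had a single library far from the other 3. Chad was at 244 normalized counts in graft BM-MSC 2 and at 0 in the others, and Tsku was at 294 in graft BM-MSC 4 against 0 to 2.82 in the others. In each the gap to the nearest library, as a share of the whole range (1.00 and 0.990), was above Dixon's critical value of 0.829 for 4 samples. Chance flags about 1 in 20 groups, and none of the 10 SLRP genes was flagged in this way in grafts. The critical value for 4 samples does not apply to the groups of 3. In P-SSCs, Podn was at 5417 in P-SSC 4 against 1331 and 1381 in P-SSC 1 and 2+5.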

How the results depend on the processing

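Of the recomputed counts of members, 56 stayed within 1.5 times the count reported and 17 did not. A count can stay the same while its members change. In grafts against BM-MSCs, the 1 member called without graft BM-MSC 2 was Prelp (adjusted p = 0.0489) and not Dcn (0.0571). Quantile normalization and GC correction also called Prelp there in place of Dcn. Leaving out 1 library gave 5 to 7 members in graft BM-MSCs against P-SSCs, 0 to 1 in grafts against BM-MSCs and 5 to 6 in P-SSCs against BM-MSCs. The single call between marrow groups, Dcn, fell to 0 at a mean of at least 100, with median centring, with the batch as a covariate, in the fit of 2 groups, in edgeR with and without the filter and at a threshold of 0.01.

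Sign changes were limited to members that did not pass the test, and to Mmp14 and Sdc3 between marrow groups, both at -0.21 with the batch as a covariate. In grafts against P-SSCs, Prelp turned to 0.43 after quantile normalization and 0.57 after GC correction, and leaving out 1 library gave -0.27 to 0.036, the highest without graft BM-MSC 2. Omd turned to 0.064 after quantile normalization, 0.34 with the batch as a covariate, 0.21 in edgeR with and without the filter and 0.078 in DESeq2, with -0.46 to 0.21 on leaving out 1 library and a change of sign without graft BM-MSC 1, graft BM-MSC 2 or P-SSC 1. Podn turned to 0.22 after GC correction, with -1.11 to 0.18 on leaving out 1 library, the highest without P-SSC 4. In grafts against BM-MSCs, Podn turned to 0.51 after GC correction, 0.31 in edgeR, 0.30 without its filter and 0.32 in DESeq2, with -0.75 to 0.27 on leaving out 1 library, and a change of sign without graft BM-MSC 1, graft BM-MSC 2 or BM-MSC 1. In P-SSCs against BM-MSCs it was -0.31 with the batch as a covariate, the same within the batch with GC-rich genes low, which was chosen after seeing the data and called 7 members, and -0.31 to 0.70 on leaving out 1 library, the lowest without P-SSC 4. The cause was not tested.

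Deviations of libraries with the same replicate label correlated at -0.019 to 0.030. Pairs that share only 1 number of a joined label were left out there. They ran from -0.067 (BM-MSC 2+4 with P-SSC 4) to 0.081 (BM-MSC 2+4 with P-SSC 2+5). These values cannot tell whether samples of different groups came from the same mice. With the replicate block, 3 members passed in grafts against P-SSCs (Fmod, Ogn and Aspn were lost), 0 in grafts against BM-MSCs and 0 in P-SSCs against BM-MSCs, Prelp was at 0.050 and Omd at 0.22 in grafts against P-SSCs, and 269, 3 and 54 of all genes passed.

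Over all genes, 2464 passed in grafts against P-SSCs, 1046 in grafts against BM-MSCs and 1248 in P-SSCs against BM-MSCs. The first became 1081 with the batch as a covariate, 1531 in edgeR (1418 without the filter), 1332 at a threshold of 0.01 and 1583 without P-SSC 1. The second became 40 with the batch as a covariate, 316 in edgeR (287 without the filter), 305 at a threshold of 0.01, 1947 in DESeq2, 540, 476 and 477 without BM-MSC 1, 2+4 and 3, and 1584 without P-SSC 4. The third became 619 in edgeR, 628 without the filter, 794 at 0.01 and 2040 within the batch with GC-rich genes low.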
